A study of Homo sapiens with 17 samples.

Results

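The IL-6 family examined here consists of 4 ligand genes (IL6, IL11, LIF and CLCF1) and 5 receptor genes (IL6R, IL6ST, LIFR, OSMR and IL11RA), taken by gene symbol from 41040 named genes, and all 9 were found in every library. Their transcripts were followed by bulk RNA-seq in IMR-90 cells, a diploid fibroblast line from human fetal lung, with no genetic modification named in the labels. The groups were untreated cells collected as week 0 (day 0 in the titles, n = 5 libraries), and cells given 20 µM etoposide for 48 h, returned to drug-free growth and harvested at week 1 (day 7, n = 6) or week 4 (day 28, n = 6). Etoposide poisons topoisomerase II and leaves DNA double-strand breaks, and the study compares non-senescent with senescent cells. All cells are of a single line, untreated cells were sampled at week 0 only, and the labels do not say that replicates were separate cultures. Treatment and time in culture therefore cannot be told apart, and each p-value rests on library-to-library spread that may be technical only.

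Cytokines of this family share the receptor subunit gp130, encoded by IL6ST, and differ in the partner that they recruit. IL-6 and IL-11 first bind a non-signalling alpha receptor (IL6R or IL11RA) and then a pair of gp130 chains, whereas LIF joins gp130 to LIFR, and OSMR joins gp130 in the receptor for oncostatin M. CLCF1 uses gp130 and LIFR together with the receptor CNTFR. Engaged receptors activate JAK kinases and the transcription factor STAT3, and SOCS3 feeds back on gp130. IL-6 is a core component of the secretory phenotype of senescent fibroblasts, and IL-11 is best known in fibroblasts as a product of TGF-beta signalling.

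Libraries held 77162364 to 102815295 counts over named genes, and all 9 genes were among the 16891 with enough counts to be tested. Levels are given as CPM, the share of a library's counts on the usual per-million scale, with library sizes scaled by the trimmed mean of M values (TMM). All 12 fibroblast markers averaged at least 1 CPM in every group, while all 9 leukocyte markers were under 1 CPM on average and summed to at most 1.34 CPM in any library. The summed epithelial markers ranged over 66.9 to 75.9 CPM at week 0, 253 to 293 CPM at week 1 and 218 to 243 CPM at week 4, with EPCAM, CDH1 and ESRP1 under 1 CPM on average. The summed fibroblast markers ranged over 30616 to 36757, 44525 to 47544 and 59942 to 63110 CPM at weeks 0, 1 and 4. Those of smooth muscle and pericytes ranged over 1160 to 1307, 945 to 1017 and 891 to 1048 CPM, and those of endothelium over 75.9 to 93.5, 60.1 to 64.4 and 54.7 to 81.7 CPM. Of the 7 endothelial markers 5 averaged under 1 CPM in each group, with PECAM1, CDH5, ERG and CLDN5 among them every time. Of the 7 smooth muscle and pericyte markers, MYH11 averaged under 1 CPM in each group, and DES did so at week 0. The part of these shifts in the results was not tested, and in bulk RNA fewer cells of a type and less RNA per cell cannot be told apart. Among 10117 genes with a mean of at least 5 CPM, week 4 replicate 6 stood apart from the rest of its group in 3.58% of genes, against 0.395% to 0.662% for each other week 4 library. Week 0 replicates 1 and 4 stood apart in 1.77% and 2.31%, against 0.148% to 0.287% for the other week 0 libraries, and week 1 replicate 4 in 1.81%, against 0.544% to 0.652%. Results that these libraries change are given with and without them.

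IL6, the founding ligand, rose about as much at week 1 as at week 4. Its levels were 8.08, 6.02, 8.22, 6.00 and 5.69 CPM in week 0 replicates 1, 3, 4, 5 and 6. At week 1 the lowest, median and highest libraries had 24.0, 27.5 and 30.8 CPM, and at week 4 they had 20.8, 26.4 and 35.4 CPM. Every treated library lay above every untreated one, and the week 1 and week 4 libraries overlapped. By edgeR's quasi-likelihood test with Benjamini-Hochberg adjustment over all tested genes, the log2 fold change was 2.02 ± 0.13 (SE) at week 1 against week 0 (adjusted p = 2.5e-12) and 2.0 ± 0.13 at week 4 against week 0 (adjusted p = 3.5e-12). These comparisons share the week 0 libraries. Week 4 and week 1 differed by -0.024 ± 0.11 on the log2 scale (adjusted p = 0.89). The highest untreated values were those of week 0 replicates 1 and 4, and without both the changes from week 0 were 2.22 at week 1 and 2.20 at week 4.

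IL11 moved the other way and further. Week 0 replicates 1, 3, 4, 5 and 6 had 137, 144, 142, 136 and 140.5 CPM. The lowest, median and highest values were 25.8, 26.4 and 28.2 CPM at week 1, and 20.9, 21.5 and 35.5 CPM at week 4. No treated library reached the untreated range. IL11 fell by 2.38 ± 0.10 (SE) on the log2 scale at week 1 against week 0 (adjusted p = 2.6e-15), which is 5.21-fold, and fell by 2.55 ± 0.10 at week 4 against week 0 (adjusted p = 1.0e-15), which is 5.85-fold. The highest week 4 value belonged to replicate 6, and the other 5 week 4 libraries lay between 20.9 and 22.6 CPM, all below every week 1 library. With that library the difference between week 4 and week 1 was -0.17 ± 0.095 (adjusted p = 0.17), and without it the difference was -0.32 (adjusted p = 3.5e-06).

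Promoters of both ligands are shown because IL6 rose and IL11 fell after the same treatment. They are the 250 bases before the RefSeq start site in GRCh38.p14, read 5′ to 3′ on the strand of the gene, with capitals marking matches to motifs of the factor families NF-kB, C/EBP and AP-1. The IL6 window is chr7:22726950-22727199 on the plus strand and the IL11 window is chr19:55370464-55370713 on the minus strand.
IL6: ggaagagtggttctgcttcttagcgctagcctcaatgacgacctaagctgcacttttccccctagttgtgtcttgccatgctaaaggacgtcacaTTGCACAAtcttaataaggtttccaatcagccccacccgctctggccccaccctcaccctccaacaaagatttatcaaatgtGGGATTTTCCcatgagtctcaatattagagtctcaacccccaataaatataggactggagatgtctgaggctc
IL11: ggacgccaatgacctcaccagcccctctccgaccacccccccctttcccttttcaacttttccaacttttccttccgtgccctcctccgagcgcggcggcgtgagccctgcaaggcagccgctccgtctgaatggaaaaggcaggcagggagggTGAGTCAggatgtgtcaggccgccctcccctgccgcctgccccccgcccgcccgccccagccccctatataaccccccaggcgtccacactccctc

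Motifs were searched on both strands, and the matches shown do not overlap each other. In the IL6 window the NF-kB motif matched GGGATTTTCC at -73 to -64 from the start site, and the C/EBP motif TTGCNNAA matched TTGCACAA at -155 to -148. In the IL11 window the AP-1 motif TGANTCA matched TGAGTCA at -96 to -90. Of 35116 promoter windows of the same length, 9.96% held the NF-kB motif, 9.05% the C/EBP motif and 6.57% the AP-1 motif. Windows were found for 7 of the 9 genes. Among the receptors, a C/EBP match was present for OSMR and for 1 of the LIFR start sites, and an NF-kB match for IL6ST and for 1 of the IL11RA start sites. A match describes letters in the window and is not evidence of binding.

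LIF, a ligand that signals through LIFR and gp130, peaked at week 1. Week 0 replicates 1, 3, 4, 5 and 6 had 114, 115, 99.0, 115 and 122 CPM. The lowest, median and highest libraries had 176, 183 and 199 CPM at week 1 and 130.1, 156 and 167 CPM at week 4. The 3 groups did not overlap in any pair. LIF was 1.64-fold higher at week 1 than at week 0 (log2 fold change 0.71 ± 0.063 SE, adjusted p = 9.9e-10) and 1.34-fold higher at week 4 than at week 0 (0.42 ± 0.062, adjusted p = 3.1e-06). Week 4 was below week 1, with a log2 fold change of -0.29 ± 0.059 (adjusted p = 3.9e-04).

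CLCF1 fell modestly and to about the same level at both times. Its libraries ranged over 14.8 to 16.97 CPM at week 0, 9.30 to 12.3 CPM at week 1 and 10.2 to 11.5 CPM at week 4, so that no treated library overlapped an untreated one. The log2 fold change was -0.53 ± 0.070 (SE) at week 1 against week 0 (adjusted p = 6.5e-07) and -0.54 ± 0.070 at week 4 against week 0 (adjusted p = 5.0e-07). Week 4 against week 1 gave -0.011 ± 0.068 (adjusted p = 0.91).

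**Figure D1:**
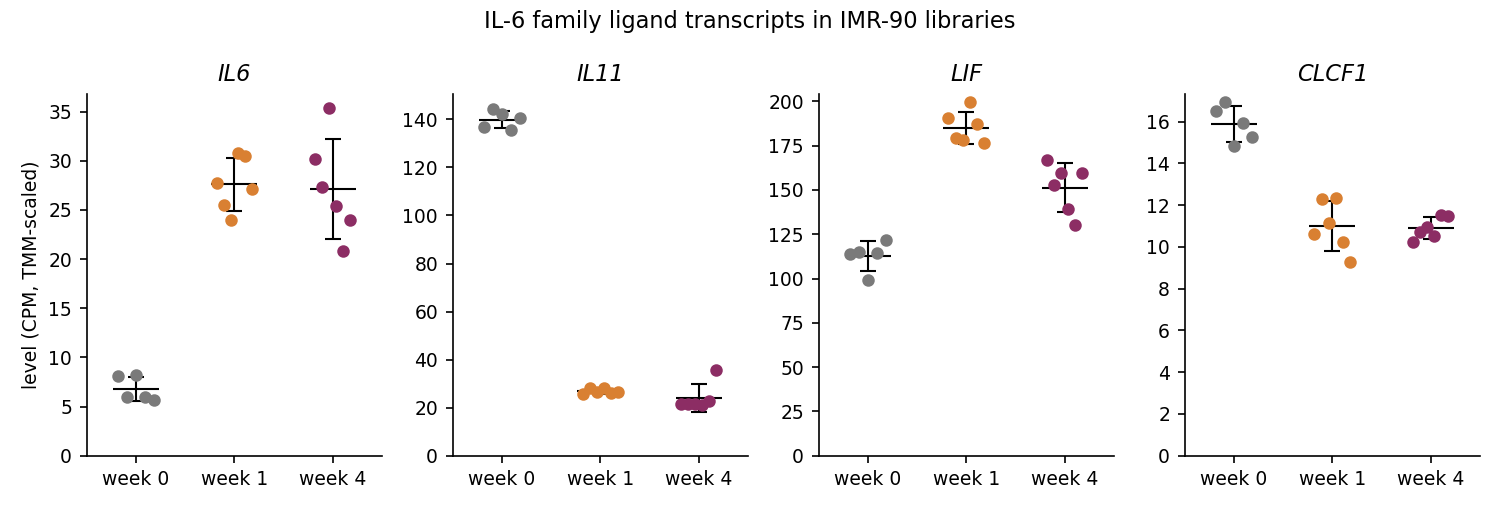
Level of each ligand transcript in CPM (linear axis from 0) for every library of week 0, week 1 and week 4, with the group mean and SD as a bar and whiskers. IL6 and LIF stand higher after etoposide, IL11 and CLCF1 stand lower, and 1 week 4 library of IL11, at 35.5 CPM, lies above the rest of its group.

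The shared subunit IL6ST rose in steps. Week 0 replicates 1, 3, 4, 5 and 6 had 512, 609, 643, 602 and 655 CPM. The lowest, median and highest values were 645, 768 and 863 CPM at week 1 and 921, 1027 and 1198 CPM at week 4. The lowest week 1 library lay within the week 0 range, whereas every week 4 library was above all others. By edgeR the log2 fold change was 0.33 ± 0.076 (SE) at week 1 against week 0 (adjusted p = 5.7e-04), 0.78 ± 0.076 at week 4 against week 0 (adjusted p = 6.6e-09) and 0.45 ± 0.072 at week 4 against week 1 (adjusted p = 2.7e-05). Without week 4 replicate 6, the highest library, the last value was 0.41 (adjusted p = 9.7e-05).

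OSMR, the partner of gp130 in oncostatin M signalling, also rose in steps. Week 0 replicates 1, 3, 4, 5 and 6 had 195, 253, 226, 253 and 253 CPM. The lowest, median and highest libraries had 303, 323 and 336 CPM at week 1 and 368, 381 and 429.7 CPM at week 4. The 3 groups did not overlap in any pair. OSMR was 1.36-fold higher at week 1 than at week 0 (log2 fold change 0.44 ± 0.062 SE, adjusted p = 1.7e-06), 1.65-fold higher at week 4 than at week 0 (0.72 ± 0.062, adjusted p = 9.1e-10) and 1.22-fold higher at week 4 than at week 1 (0.28 ± 0.059, adjusted p = 5.2e-04). Without week 0 replicates 1 and 4, the 2 lowest libraries of that group, the changes from week 0 were 0.33 at week 1 and 0.62 at week 4 on the log2 scale.

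LIFR, the partner of gp130 for LIF and CLCF1, did not pass the test in any comparison with all libraries. Its week 0 replicates 1, 3, 4, 5 and 6 had 29.3, 35.9, 34.0, 37.1 and 40.8 CPM. The lowest, median and highest values were 26.9, 31.5 and 35.7 CPM at week 1 and 30.2, 32.1 and 37.5 CPM at week 4, and all groups overlapped. The log2 fold change was -0.16 ± 0.080 (SE) at week 1 against week 0 (adjusted p = 0.087), -0.11 ± 0.080 at week 4 against week 0 (adjusted p = 0.23) and 0.048 ± 0.077 at week 4 against week 1 (adjusted p = 0.67). This depended on the untreated libraries. Without week 0 replicate 1, the lowest of its group, LIFR was called lower at week 1 (-0.22, adjusted p = 0.012) and at week 4 (-0.17, adjusted p = 0.044), and without replicates 1 and 4 the values were -0.26 (adjusted p = 0.0039) and -0.21 (adjusted p = 0.016). It was also called lower at week 1 without week 1 replicate 5 (-0.19, adjusted p = 0.043).

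The alpha receptors of IL-6 and IL-11 were the least abundant receptors per kilobase, and both fell at week 1 and week 4. IL6R had 9.64, 11.4, 11.3, 10.7 and 11.3 CPM in week 0 replicates 1, 3, 4, 5 and 6. Its lowest, median and highest values were 5.22, 6.17 and 6.48 CPM at week 1 and 5.27, 5.41 and 6.93 CPM at week 4, with no overlap between treated and untreated libraries. The fall was 1.81-fold at week 1 against week 0 (log2 fold change -0.85 ± 0.082 SE, adjusted p = 4.6e-09) and 1.89-fold at week 4 against week 0 (-0.92 ± 0.082, adjusted p = 1.4e-09), while week 4 against week 1 gave -0.068 ± 0.080 (adjusted p = 0.54).

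IL11RA was near the low end of what was tested, with 93 to 173 counts per library at week 0, 47 to 84 at week 1 and 49 to 124 at week 4. Its levels ranged over 0.990 to 1.81 CPM, 0.515 to 1.05 CPM and 0.537 to 1.26 CPM at weeks 0, 1 and 4, and all groups overlapped. It fell at week 1 against week 0 (log2 fold change -0.95 ± 0.22 SE, adjusted p = 6.4e-04). At week 4 against week 0 the value was -0.61 ± 0.22 (adjusted p = 0.017), a call that was lost without week 0 replicate 1 (-0.50, adjusted p = 0.059). That call was also lost with a term for whether the deposited file held a gene length column (-0.55, adjusted p = 0.050) and in the 13 libraries without that column (-0.53, adjusted p = 0.090).

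**Figure D2:**
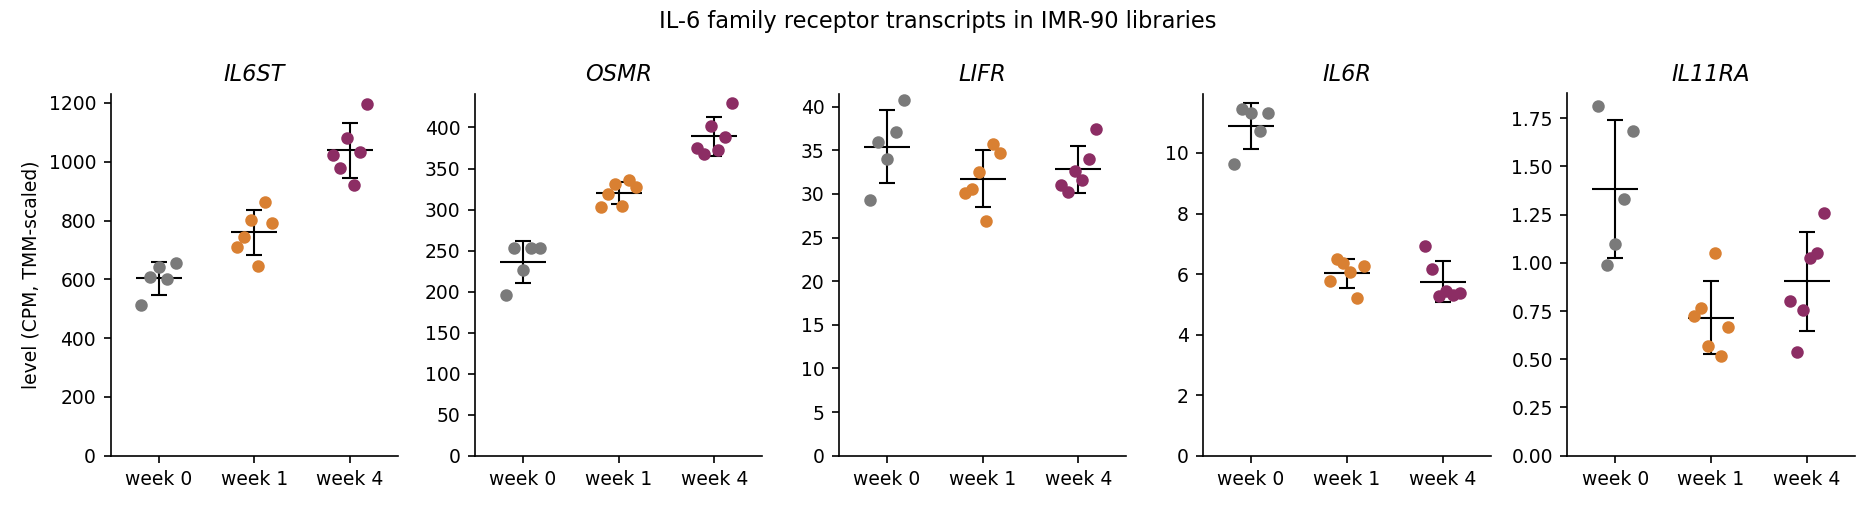
Level of each receptor transcript in CPM (linear axes from 0, each with its own scale) for every library of week 0, week 1 and week 4, with the group mean and SD. IL6ST and OSMR climb from week 0 to week 4, and LIFR overlaps across groups. IL6R is lower after etoposide in every library, and IL11RA is lower on average with libraries that overlap across groups.

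Counted over the family, 4 of the 9 genes were higher (IL6, LIF, IL6ST and OSMR) and 4 lower (IL11, CLCF1, IL6R and IL11RA) at week 1 against week 0. Of all tested genes 66.9% were called in that comparison, 32.9% higher and 34.0% lower. The same 4 and 4 genes were called at week 4 against week 0, where 67.6% of all tested genes were called, 33.9% higher and 33.7% lower. Libraries did not overlap for 6 of the 9 genes at week 1 and for 7 at week 4, against 48.7% and 49.0% of all tested genes. Between week 4 and week 1, 2 of the 9 genes were higher (IL6ST and OSMR) and 1 lower (LIF), where 40.5% of all tested genes were called, 21.8% higher and 18.6% lower, and 30.2% did not overlap. IL6 and IL11 alone changed more than 2-fold among the 9, where 11.6% of tested genes rose and 9.08% fell by more than 2-fold at week 1, and 12.1% and 7.55% at week 4. None of the 9 changed by more than 2-fold between week 4 and week 1, where 2.99% of tested genes rose and 1.14% fell by that much. The median log2 fold change of the family was -0.16 at week 1 and -0.11 at week 4 against week 0, beside -0.022 and 0.0021 for all tested genes, and -0.011 at week 4 against week 1, beside 0.011.

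**Figure D3:**
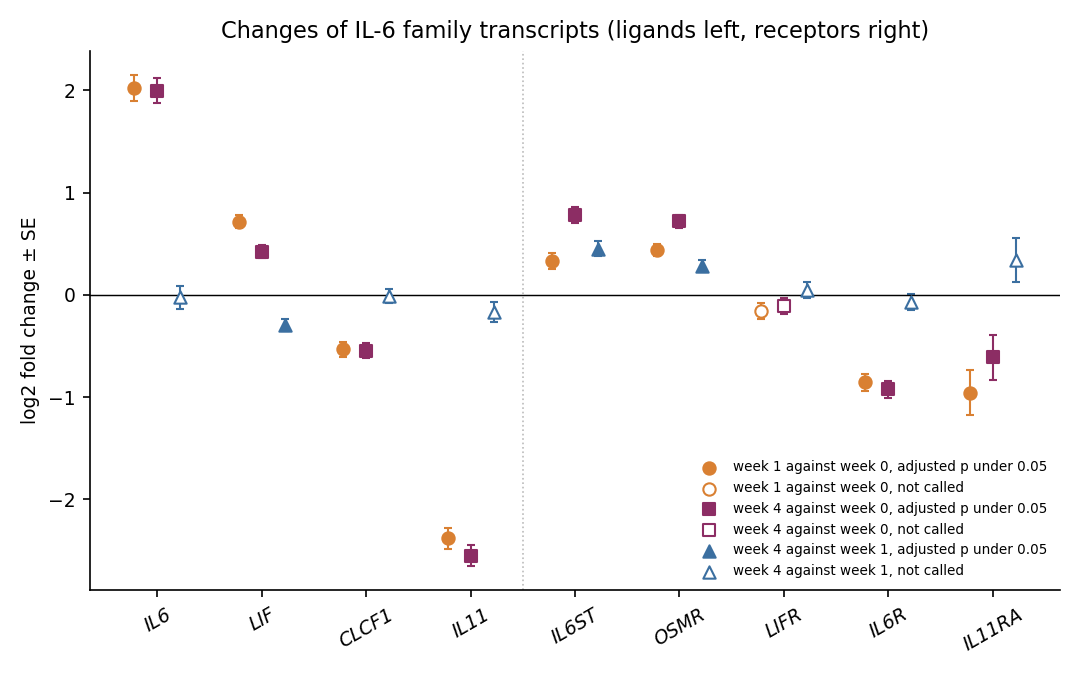
Log2 fold change (vertical axis, whiskers ± SE) of each family member in the 3 comparisons, with filled symbols for an adjusted p under 0.05 and open symbols otherwise. IL6 near 2.0 and IL11 at -2.38 and -2.55 lie outside the range of the other members, and LIF, IL6ST and OSMR are the members with a filled symbol at week 4 against week 1.

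To compare genes with each other, CPM was divided by the gene length in kilobases that the deposited files give. The lengths were 4321 bases for IL6, 2678 for IL11, 3871 for LIF and 1836 for CLCF1. Order, shares and ratios between genes depend on the deposited lengths, which were not checked against the transcripts expressed here. Before division, IL6 and IL11 averaged 27.6 and 26.9 CPM at week 1, and 27.2 and 23.9 CPM at week 4. Per kilobase the most abundant ligand changed. At week 0 IL11 stood at 52.3 ± 1.37 CPM per kb (mean ± SD, n = 5) and made up 57.0% of the summed level of the 4 ligands, with LIF at 29.1 ± 2.17 CPM per kb (31.8%), CLCF1 at 8.66 ± 0.476 (9.45%) and IL6 at 1.57 ± 0.287 (1.72%). At week 1 LIF made up 68.1% of the sum, IL11 14.3%, IL6 9.09% and CLCF1 8.52%. At week 4 the shares were 64.9% for LIF, 14.8% for IL11, 10.4% for IL6 and 9.92% for CLCF1. The ratio of IL11 to IL6 per kb was 27.3 to 39.8 in the week 0 libraries, 1.39 to 1.78 at week 1 and 0.976 to 2.39 at week 4. IL6 and CLCF1 overlapped in level at weeks 1 and 4, as did IL11 and IL6 at week 4. The ligand sum was 91.6 ± 2.30, 70.2 ± 3.25 and 60.2 ± 5.17 CPM per kb at weeks 0, 1 and 4.

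Among receptors the order was the same at all 3 times, and neighbours in it did not overlap within a group. IL6ST stood at 50.1 ± 4.64, 63.0 ± 6.35 and 86.1 ± 7.82 CPM per kb at weeks 0, 1 and 4, followed by OSMR at 32.9 ± 3.57, 44.6 ± 1.91 and 54.2 ± 3.27. LIFR stood at 2.91 ± 0.348, 2.61 ± 0.266 and 2.70 ± 0.218 CPM per kb, IL6R at 1.56 ± 0.107, 0.862 ± 0.067 and 0.822 ± 0.095, and IL11RA at 0.263 ± 0.068, 0.136 ± 0.036 and 0.172 ± 0.049. The ratio of the shared subunit IL6ST to the alpha receptor IL6R was 30.8 to 33.6 in week 0 libraries, 61.6 to 95.9 at week 1 and 85.5 to 129 at week 4. The ratio of OSMR to LIFR was 10.5 to 11.9, 15.9 to 19.2 and 19.3 to 20.9 at weeks 0, 1 and 4. The ratio of IL6ST to OSMR was 1.41 to 1.69, 1.26 to 1.53 and 1.47 to 1.66, overlapping in all groups.

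**Figure D4:**
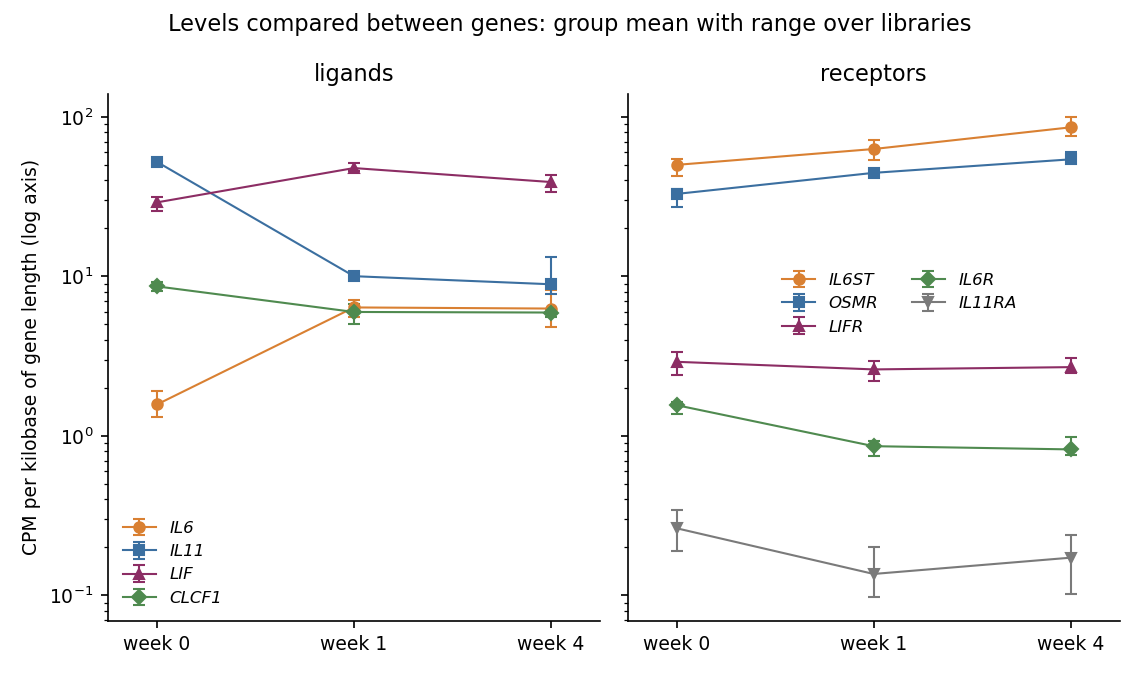
Group mean level in CPM per kilobase of gene length (log axis) at weeks 0, 1 and 4, with whiskers from the lowest to the highest library, for ligands on the left and receptors on the right. IL11, at 10.0 CPM per kb at week 1 against 52.3 at week 0, lies below LIF after etoposide, and the receptors keep their order.

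The closest profiles to the ligands IL6, IL11 and LIF were sought among 10117 genes, by the root mean square difference of mean-centred log2 CPM over the 17 libraries. This distance includes the change between groups, so genes with a similar change from week 0 come out near each other. Shared regulation was not tested. For IL6 the nearest were BIRC3, an inhibitor of apoptosis protein (0.17), KIT, the receptor of stem cell factor (0.20), DTNA (0.20) and RAB6B (0.21). BIRC3 averaged 2.61, 12.7 and 11.0 CPM at weeks 0, 1 and 4, and KIT 6.59, 26.2 and 24.7 CPM. For IL11 they were NR4A1, an immediate-early nuclear receptor (0.17), and the cell division genes CDC25A (0.17), CENPN (0.18) and AURKA (0.18). NR4A1 averaged 22.4, 3.04 and 2.87 CPM, and AURKA, a mitotic kinase, 140.0, 26.7 and 23.2 CPM. For LIF they were SLC39A13, a zinc transporter (0.073), SLC12A4, a potassium-chloride cotransporter (0.078), RUSC2 (0.085) and IPO13, an importin (0.089). SLC39A13 averaged 104, 179.8 and 140.3 CPM.

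Other ligands and receptors of the family had few counts or moved in both directions. Of 9 such genes, 4 were not tested (OSM, IL27, IL31 and CNTFR, with at most 14 counts in any library). Of the 5 tested, 3 rose and 2 fell at week 1, and 3 rose and 0 fell at week 4, against week 0, where 32.9% of all tested genes rose and 34.0% fell at week 1, and 33.9% and 33.7% at week 4. The week 1 falls of CNTF (-0.93, adjusted p = 0.0051) and IL31RA (-0.41, adjusted p = 0.0064) were lost in the 13 libraries without a length column (adjusted p = 0.081 and 0.21). At week 4 against week 0, 1 gene was lower with limma-voom or without week 4 replicate 5. CTF1, which encodes cardiotrophin-1, a ligand of LIFR and gp130, ranged over 4.80 to 6.02 CPM at week 0, 13.7 to 16.0 CPM at week 1 and 10.4 to 13.1 CPM at week 4. Its log2 fold change was 1.45 at week 1 against week 0 (adjusted p = 9.5e-14) and 1.03 at week 4 against week 0 (adjusted p = 4.1e-11). EBI3, a subunit of interleukin 27, was at 0.063 to 0.26 CPM at week 0, 1.70 to 2.99 CPM at week 1 and 1.89 to 2.99 CPM at week 4. IL27RA, which pairs with gp130, rose by 0.44 at week 1 (adjusted p = 5.6e-05) and 0.68 at week 4 (adjusted p = 1.9e-07) on the log2 scale.

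Of 11 genes of the JAK-STAT signalling core, 5 rose and 3 fell at week 1, and 7 rose and 2 fell at week 4, against week 0. The 8 called at week 1 and 9 called at week 4 stand beside 66.9% and 67.6% of all tested genes, and without week 0 replicates 1 and 4 the number lower at week 4 was 4. STAT3, the main transcription factor downstream of gp130, ranged over 242 to 258 CPM at week 1 and 260.4 to 275 CPM at week 4, against 140.1 to 170.0 CPM at week 0. Its log2 fold change was 0.66 at week 1 (adjusted p = 3.6e-11) and 0.74 at week 4 (adjusted p = 5.2e-12). The adaptor gene GRB2 also rose, by 0.43 (adjusted p = 5.0e-10) and 0.22 (adjusted p = 1.0e-05). STAT5B and STAT5A fell at week 1 (-0.54, adjusted p = 6.1e-09, and -0.86, adjusted p = 4.2e-07) and at week 4 (-0.27, adjusted p = 9.1e-05, and -0.48, adjusted p = 5.9e-04). The median log2 fold change of the list was 0.089 at week 1 and 0.22 at week 4, beside -0.022 and 0.0021 for all tested genes. Both sheddases that release soluble IL-6 family receptors rose at both times against week 0, where 32.9% of all tested genes rose at week 1 and 33.9% at week 4. ADAM17 rose by 0.33 (adjusted p = 1.3e-06) and 0.41 (adjusted p = 6.8e-08), and ADAM10 by 0.24 (adjusted p = 0.0037) and 0.32 (adjusted p = 2.0e-04). The week 1 libraries of ADAM10 overlapped those of week 0. Without week 0 replicates 1 and 4, ADAM10 gave 0.12 (adjusted p = 0.021) and 0.21 (adjusted p = 2.8e-04).

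More of the listed inhibitors of JAK-STAT signalling (SOCS genes and CISH, PIAS genes and phosphatases) fell than rose against week 0. Of 13 genes 12 were tested, of which 2 rose and 8 fell at week 1, and 1 rose and 6 fell at week 4, against week 0. Of all tested genes 32.9% rose and 34.0% fell at week 1, and 33.9% rose and 33.7% fell at week 4. Between week 4 and week 1, 4 of the 12 were higher and 2 lower, where 21.8% of all tested genes were higher and 18.6% lower. SOCS3, which binds gp130, ranged over 16.0 to 19.3 CPM at week 1 and 21.0 to 24.4 CPM at week 4, against 43.2 to 50.8 CPM at week 0. Its log2 fold change was -1.40 at week 1 (adjusted p = 5.7e-15) and -1.01 at week 4 (adjusted p = 1.8e-12), and it was higher at week 4 than at week 1 by 0.39 (adjusted p = 1.7e-05). SOCS2 fell further, with -2.44 at week 1 (adjusted p = 1.9e-18) and -3.12 at week 4 (adjusted p = 7.5e-20), and CISH, a STAT5-induced member of the same family, had -1.45 (adjusted p = 1.9e-09) and -0.72 (adjusted p = 3.7e-05). The phosphatase gene PTPN1 and the STAT inhibitor PIAS3 were the 2 that rose at week 1 (0.31, adjusted p = 1.3e-05, and 0.24, adjusted p = 4.3e-04), and PIAS3 alone rose at week 4 (0.25, adjusted p = 4.1e-04). Without week 0 replicates 1 and 4, PIAS3 gave 0.15 at both times (adjusted p = 0.0042 and 0.0038). The list's median log2 fold change was -0.30 at week 1 and -0.22 at week 4, beside -0.022 and 0.0021 for all tested genes.

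STAT3 target and acute phase genes went both ways. Of 17 genes 11 were tested, and the 6 not tested (SERPINA3, LBP, SAA1, SAA2, FGL1 and HP) had at most 19 counts in any library. At week 1 against week 0, 4 rose and 5 fell, where 32.9% of all tested genes rose and 34.0% fell. The list's median log2 fold change at week 1 was -0.068, beside -0.022 for all tested genes. Without week 0 replicate 5 the number that rose was 2. LRG1, called higher at both times against week 0, was near the floor, at no more than 0.20 CPM at week 1 and 0.34 CPM at week 4. NNMT rose at week 1 by 0.28 (adjusted p = 0.02), with libraries that overlapped those of week 0. TIMP1, a metalloproteinase inhibitor, had the smallest adjusted p of those that rose, with 3730 ± 185 CPM at week 1 and 1379 ± 57.0 CPM at week 0 (log2 fold change 1.44, adjusted p = 1.8e-15). PIM1, a kinase induced by STAT factors, fell (-1.16, adjusted p = 6.2e-13), as did IL4R (-0.97, adjusted p = 5.4e-13) and BCL3 (-0.75, adjusted p = 2.8e-10). At week 4 against week 0, 6 rose and 3 fell, where 33.9% of all tested genes rose and 33.7% fell. At week 4 against week 1, 8 rose and 1 fell, where 21.8% of all tested genes rose and 18.6% fell. PIM1 was 0.91 higher at week 4 than at week 1 (adjusted p = 2.7e-10), JUNB 0.48 higher (adjusted p = 7.3e-08) and CEBPD 1.11 higher (adjusted p = 6.9e-07). Against week 0, PIM1 was still lower at week 4 (-0.25, adjusted p = 0.0022), while JUNB was higher (0.35, adjusted p = 2.6e-06). CEBPD had fallen at week 1 against week 0 (-0.95, adjusted p = 2.7e-06) and was not called at week 4 against week 0 (0.17, adjusted p = 0.28).

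Of 18 genes that regulate IL6 transcription or the stability of its mRNA, 17 were tested, of which 11 rose and 5 fell at week 1, and 9 rose and 4 fell at week 4, against week 0. Of all tested genes 66.9% were called at week 1 (32.9% higher) and 67.6% at week 4 (33.9% higher). The list mixes genes that raise IL6 mRNA with genes that lower it, so its counts and median give no direction for IL6. JUN, an AP-1 subunit, rose by 1.15 at week 1 (adjusted p = 4.6e-14) and 1.20 at week 4 (adjusted p = 2.8e-14), and ATF3 by 1.20 (adjusted p = 1.7e-10) and 1.00 (adjusted p = 3.7e-09). IL1A, an upstream inducer of IL6 in senescent cells, ranged over 2.40 to 3.70 CPM at week 1 and 1.99 to 4.03 CPM at week 4, against 0.316 to 0.902 CPM at week 0 (log2 fold change 2.38 at week 1, adjusted p = 1.4e-08). The AP-1 subunits FOSL1 and FOS fell at week 1 (-0.81, adjusted p = 2.0e-11, and -1.93, adjusted p = 3.9e-10) and at week 4 (-1.09, adjusted p = 1.2e-13, and -0.96, adjusted p = 9.6e-06). ELAVL1, an RNA-stabilising protein, fell at week 1 (-0.56, adjusted p = 4.4e-10) and week 4 (-0.65, adjusted p = 3.4e-11). ZFP36, which promotes decay of cytokine mRNAs, fell about equally at week 1 (-0.57, adjusted p = 2.0e-09) and week 4 (-0.56, adjusted p = 2.7e-09). ZFP36L1, of the same family, went the other way, by 0.29 at week 1 (adjusted p = 1.2e-05) and 0.48 at week 4 (adjusted p = 1.0e-08). It averaged 151, 185 and 211 CPM at weeks 0, 1 and 4, against 29.2, 19.7 and 19.8 CPM for ZFP36. The list's median log2 fold change was 0.27 at week 1 and 0.30 at week 4, beside -0.022 and 0.0021 for all tested genes.

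**Figure D5:**
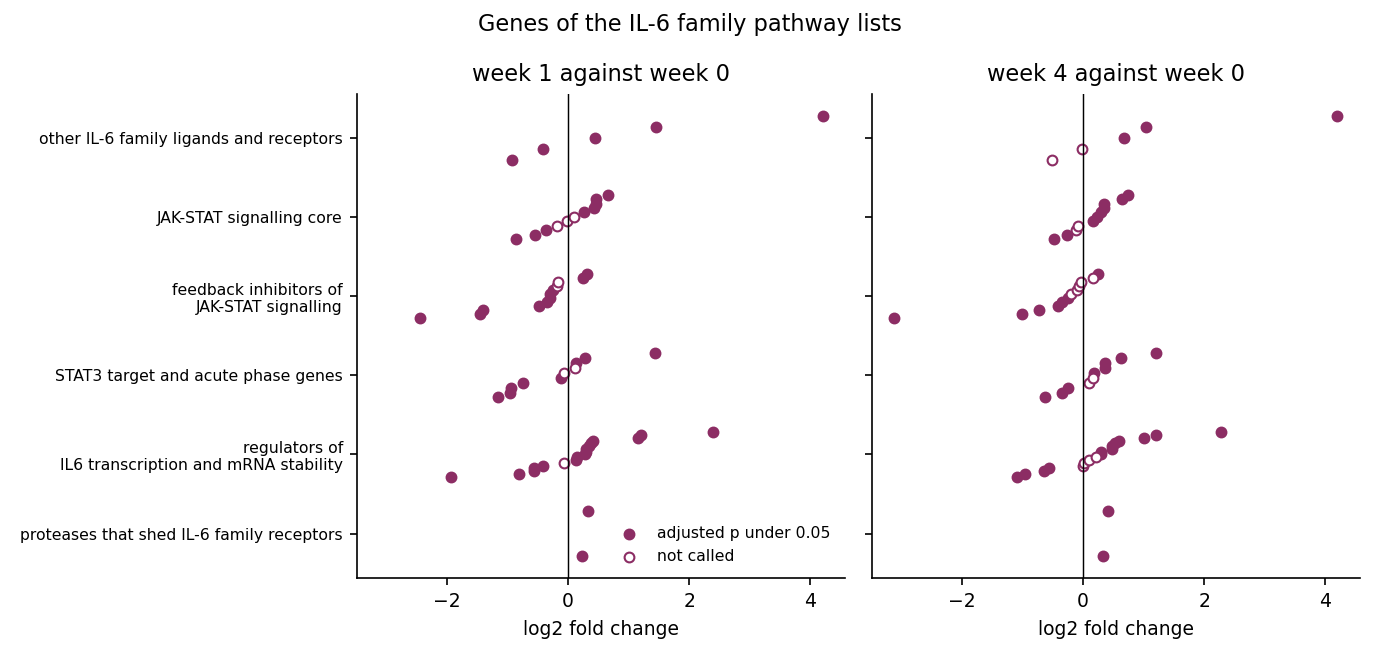
Log2 fold change of each tested gene of the 6 pathway lists at week 1 against week 0 (left) and at week 4 against week 0 (right), with filled points for an adjusted p under 0.05 and open points otherwise. LRG1 is left out because all week 0 libraries were at 0 counts. The lowest points are SOCS2 at -2.44 and -3.12, and the highest are EBI3 at 4.20 and 4.19.

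Several family members share their locus with another annotated gene, and whether counting used the strand is not given in the sources used here. In GENCODE 29, RICTOR overlaps OSMR, RAD9A overlaps CLCF1 and STEAP1B overlaps IL6 on the opposite strand, while GALT overlaps IL11RA on the same strand. The protein-coding entries AP003419.1 and AL162231.3 overlap CLCF1 and IL11RA on the same strand, and neither has a deposited count. The deposited counts were 1610 to 3391 for RICTOR, 391 to 1037 for RAD9A, 342 to 1662 for STEAP1B and 57 to 233 for GALT per library. The pseudogene IL6STP1 had 22 to 106 counts, against at least 48865 for IL6ST. Levels of OSMR, CLCF1, IL6 and IL11RA are uncertain to the extent that reads of these partners could not be separated.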

How the data were processed

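Per the labels' protocols, RNA was column-purified after DNase digestion, and sequencing libraries came from an Illumina kit. The authors deposited raw, unnormalized counts per gene symbol, 1 file per library, and 4 files (week 0 replicates 5 and 6, week 1 replicates 1 and 2) also held a gene length. HISAT2 2.0.5.2 and featureCounts 1.4.6 are named in the submitters' processing notes with build mm10, a mouse build, while the symbols are human. The build behind the counts is therefore unclear, and no coordinates other than RefSeq promoters are given.

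A row with no gene name (0.221% to 0.289% of counts) was dropped. The test was edgeR 4.0.16 (R 4.3.3) quasi-likelihood, with 1 mean for each group over the 17 libraries, after filterByExpr (16891 genes) and TMM scaling (factors 0.938 to 1.11). P-values were Benjamini-Hochberg adjusted over the tested genes and called under 0.05. The SE is the log2 fold change over the square root of F. Without scaling, the median gene shifted by -0.18 and -0.19 (log2) from week 0 to the first and last treated times and by -0.020 between these, so changes are relative to the TMM scale. No replicate pair agreed within sampling noise (chi-square per gene at least 7.24 over 40 pairs). The test was tried on simulated counts with known changes.

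Family members, pathway lists and tests were chosen with earlier results of these data known. Named pathway genes come from the 3 rising and 3 falling with the smallest adjusted p of each list and comparison. Alternatives covered scaling (RLE, upper quartile), the tool (DESeq2 1.42.0, limma-voom in limma 3.58.1), the filter (none, or 5 CPM in 5 libraries), a replicate block, fits to the compared groups only, the file class (as a term, or the 13 files without lengths alone), and left-out libraries (week 0 replicates 1 and 4 together, then each library singly). A single gene of the pathway lists is not reported here.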

Additional observations from a re-analysis of the deposited data

Results flagged for a closer look

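IL11 in week 4 replicate 6, at 35.5 CPM, stood far from the other 5 week 4 libraries (20.9 to 22.6 CPM), with a gap of 0.885 of the group's whole range. It was the only such value among 27 groups of libraries examined (9 genes at 3 times), where chance flags about 1 in 20. By the ratio to the median of the other week 4 libraries, IL11 ranked 9 of 9728 genes in that library, at 1.66.

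For 3 genes the change from week 0 differed between the treated times, tested as week 4 against week 1 by edgeR. The week 4 change minus the week 1 change was -0.29 for LIF (adjusted p = 3.9e-04), 0.45 for IL6ST (adjusted p = 2.7e-05) and 0.28 for OSMR (adjusted p = 5.2e-04) on the log2 scale. In each, the week 4 and week 1 libraries did not overlap.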

How the results depend on the processing

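Across 28 alternative settings, the counts of genes called stayed within 1.5 times their values: 8231 to 12315 (11305 as reported) at week 1 against week 0, 8261 to 11920 (11414) at week 4 against week 0 and 5624 to 8310 (6835) at week 4 against week 1. Of the 9 family members 7 to 9, 7 to 9 and 3 to 4 were called. IL6 ranged over 1.91 to 2.22 at week 1 and 1.86 to 2.20 at week 4 against week 0, and IL11 over -2.41 to -2.31 and -2.70 to -2.48, on the log2 scale. Of 753 member values, 735 kept their direction and side of the threshold, 7 newly passed it (6 for LIFR, 1 for IL11), 3 no longer passed it (IL11RA at week 4 against week 0) and 8 changed sign. All 8 were in week 4 against week 1, where neither gene was called: leaving out 1 library gave -0.055 to 0.024 for CLCF1 and -0.11 to 0.042 for IL6, and the 13 files without lengths alone gave 0.022 for CLCF1. The cause was not tested. Among named pathway genes, 24 of 2136 values no longer passed, for CNTF, IL31RA, LRG1 and NNMT at week 1 against week 0 and IL27RA and RELA at week 4 against week 1. Of 1008 list counts, 26 moved by over 1.5 times, each a count of at most 4 genes as reported. IL11RA was removed by the stricter filter.

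Same-numbered replicates did not deviate together (correlations of -0.041 to 0.055, none over 0.1), so the numbers were not treated as pairs, and the labels do not say whether they are. With the replicate block, 11096, 11180 and 6669 genes were called in the 3 comparisons and 9, 8 and 3 of the family members, the added one being LIFR at week 1 against week 0 (-0.14, adjusted p = 0.039). IL11RA, at 47 to 173 counts per library, is the member whose precision depth limits most.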

Other observations

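Several genes stood high in week 4 replicate 6 relative to its group, and the 7 with the largest ratio to the median of the others are given here, picked after their values were seen. SMOC1, a matricellular protein gene, was at 31.7 CPM there, against 10.2 to 14.6 CPM in the other week 4 libraries. The phosphodiesterase gene PDE4D was at 31.9 CPM, against 14.7 to 17.9 CPM, and PDE4B at 13.6 CPM, against 6.65 to 8.71 CPM. NR4A2, a nuclear receptor gene, was at 11.7 CPM, against 6.70 to 7.61 CPM. P4HA3, a collagen prolyl hydroxylase gene, was at 26.9 CPM, against 12.4 to 17.3 CPM, and INHBB, which encodes an inhibin subunit, at 18.9 CPM, against 8.43 to 11.2 CPM. The serine protease inhibitor gene TFPI2 was at 111 CPM, against 51.8 to 77.7 CPM. At week 0 INHBB lay at 1.79 to 2.88 CPM, below these values. The week 0 ranges were 43.9 to 57.7 CPM for SMOC1, 185 to 259 for TFPI2, 21.3 to 28.7 for PDE4B and 29.8 to 35.9 for NR4A2. For PDE4D and P4HA3 they were 19.3 to 31.0 and 23.2 to 26.9 CPM. IL6 in week 4 replicate 6, at 23.9 CPM, lay within the range of the other week 4 libraries (20.8 to 35.4 CPM).

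Spread between libraries differed among the family. At week 0 the coefficient of variation was 2.63% for IL11 and 18.2% for IL6, and at week 1 it was 3.81% for IL11 and 9.73% for IL6. At week 4 the order was the other way, with 23.9% for IL11, whose group holds replicate 6, and 18.7% for IL6.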
